A study of Mus musculus with 4 samples.

Results

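Glycolysis, the cytosolic pathway that splits glucose into pyruvate, was examined through 10 genes of its enzymes in B16 cells, a mouse melanoma cell line. The genes were Hk1, Hk2, Gpi1, Pfkl, Pfkm, Pfkp, Aldoa, Pgk1, Eno1 and Pkm, chosen by name with earlier results of these data known. Their symbols matched 11 of the 53465 gene rows of the count table, because Aldoa is carried by 2 Ensembl identifiers, and all 11 rows passed the filter on low counts. Poly(A) RNA was sequenced in 2 control libraries and in 2 libraries of cells given EM-plasma for 4 h. In the labels EM stands for exosome-mimetic nanovesicles, and the treatment is written as plasma treated with them. The kind of plasma, what the controls received and when they were collected are not stated. The labels do not state whether the libraries are separate cultures. The p-values thus measure the spread among 4 libraries only, pooled in large part over genes, and that spread may be technical. The series title names ferroptosis linked to Golgi stress, and the comparison asked which of these transcripts differ between treated and control cells.

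Hexokinases phosphorylate glucose and trap it in the cell, Gpi1 converts glucose 6-phosphate to fructose 6-phosphate, and phosphofructokinases carry out the committed step, the main point of control. Aldolase splits the resulting fructose 1,6-bisphosphate, enolase makes phosphoenolpyruvate, and phosphoglycerate kinase and pyruvate kinase are the steps that yield ATP. Hexokinase and phosphofructokinase are each encoded by several genes whose products differ in tissue distribution and regulation. Many tumour cells, melanoma included, use glycolysis heavily, and hypoxia-inducible factor and MYC are known activators of its genes.

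The libraries held 46295133 to 49367932 counts, and the 11 rows took 0.638% to 0.676% of them. The 8 melanocyte and melanoma markers summed to between 11369 and 11732 CPM in a library, where CPM, the usual counts-per-million unit, is the read count relative to library size after scaling by the trimmed mean of M-values (TMM). Markers of other cell types summed to at most 2.0 CPM for 8 leukocyte genes, 30.4 for 6 fibroblast genes, 0.169 for 4 endothelial genes, 0.142 for 8 red cell and platelet genes and 2.02 for 6 epithelial genes. Ptprc, Itgam, Cdh5, Kdr, Hbb-bs, Pf4, Epcam, Krt8 and Krt18 had 0 reads in every library. Of these markers 14 were tested, and 0 were called in the reported edgeR fit or by DESeq2, with 4 at an unadjusted p below 0.05. Their log2 fold changes ran from -0.22 (Tyr) to 0.095 (Slc45a2) in the melanoma list, from -1.25 (Lyz2) to 0.51 (Cd68) in the leukocyte list and from 0.0029 (Col1a2) to 0.57 (Col1a1) in the fibroblast list, and Cdh1 was at -0.021. With only genes of at least 1 CPM in all 4 libraries kept, Tyr was called lower (adjusted p = 0.0423, against 0.0532) and Col1a1 higher (0.0458, against 0.0641). Their part in the results was not tested.

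In EM-plasma-treated cells 1 hexokinase transcript rose and 1 phosphofructokinase transcript fell, while the other members did not pass the test. Hk1 rose 1.14-fold, from 359.9 ± 24 to 411 ± 3.58 CPM (SD, n = 2 per group), and Pfkl was 1.29-fold lower, at 83.7 ± 1.18 against 108 ± 5.67 CPM. In bulk RNA, fewer cells of a type and less RNA per cell cannot be told apart. For the 9 other rows the log2 fold change, treated over control, ran from -0.11 to 0.15, the upper end being the second Aldoa row with 17 to 30 reads in a library. The median over the 11 rows was -0.0012, beside -0.0027 over all 13664 genes tested. A gene was called at an adjusted p below 0.05 in the quasi-likelihood test of edgeR, adjusted over every tested gene by the Benjamini-Hochberg method. By this rule 2 of 11 rows were called, where 6.21% of all tested genes were, 3.34% higher and 2.88% lower. Both EM-plasma libraries lay on the same side of both controls for 6 of 11 rows, a share near the 49.1% of all tested genes.

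**Figure D1:**
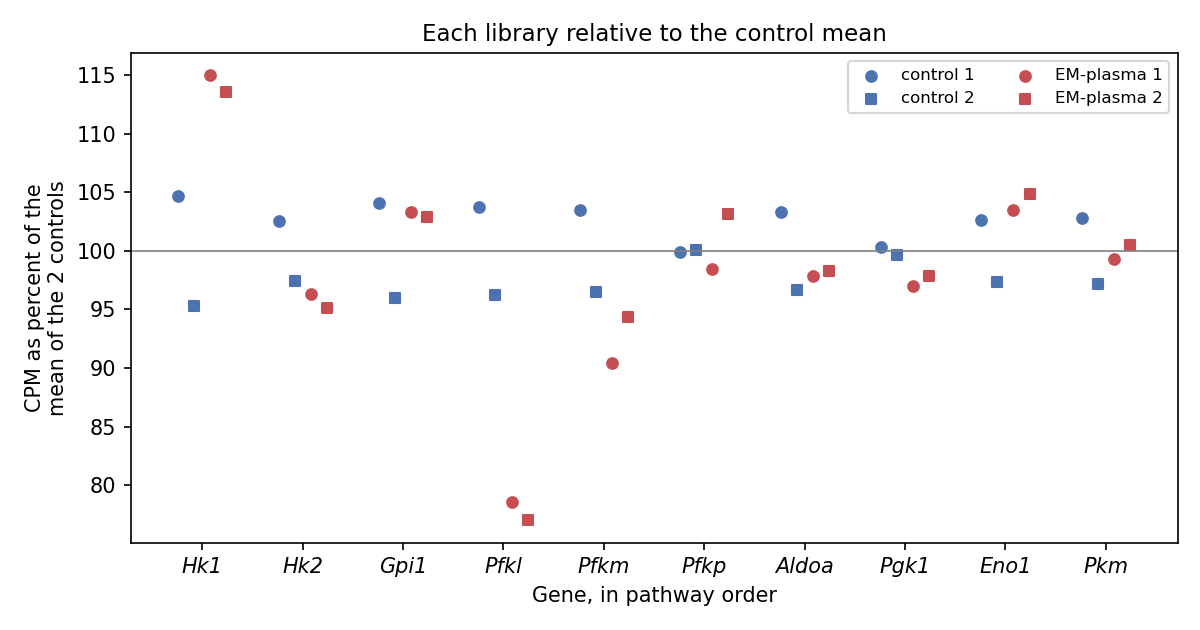
CPM of each of the 10 genes in each library (points), as a percent of the mean of the 2 controls, with genes in pathway order and the line at 100%. The EM-plasma points of Pfkl lie at 78.55% and 76.99% and those of Hk1 at 115.0% and 113.6%, while those of the other 8 genes lie between 90.4% and 104.9%.

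By the median over the 10 genes, the controls differed from each other more than the treated libraries did. For Pfkp and Pgk1 the treated libraries differed more. Control 2 was below control 1 in 9 of the 10 genes, by up to 9.02% in Hk1, and Pfkp was the exception. The median difference between the controls was 5.97% over the 10 genes, and 1.23% between the EM-plasma libraries. Over all tested genes of at least 50 CPM these medians were 4.86% and 2.44%, and control 2 was the lower control in 46.4% of those genes. Summed over the 11 rows, the level was 6779.8 and 6413 CPM in the controls and 6636 and 6689 CPM in the treated libraries, so the treated values lay between the controls. What sets the controls apart was not tested.

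Hexokinase was represented by Hk1 and Hk2, whose products sit on the outer mitochondrial membrane, Hk1 being widespread and Hk2 the insulin-responsive form often raised in tumours. Hk1 (GRCm38 chromosome 10, 62268855 to 62379908, minus strand, ENSMUSG00000037012) was at 377 and 343 CPM in the controls and at 414 and 409 CPM in the treated libraries. Both treated values were above both controls (log2 fold change 0.19, SE 0.0457, adjusted p = 0.0092 in edgeR's test). Hk2 (chromosome 6, 82725025 to 82774454, minus strand, ENSMUSG00000000628) was at 172 and 163 CPM in the controls and at 161 and 159 CPM in the treated libraries. The Hk2 groups did not overlap, but control 2 lay close to the treated values, and the gene did not pass the test (log2 fold change -0.063, 95% interval -0.16 to 0.035, adjusted p = 0.514). The reads of both genes together came to 549 and 506 CPM in the controls and 575 and 568 CPM in the treated libraries. The call of Hk1 ended when every gene with at least 1 read was kept (adjusted p = 0.30), without control 2 (log2 fold change 0.13, adjusted p = 0.148), without EM-plasma 1 (0.18, adjusted p = 0.31) or without EM-plasma 2 (0.20, adjusted p = 0.218). Over its 14 alternatives the adjusted p of Hk1 ran from 2.73e-05 to 0.31, and its direction was higher in each.

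The balance between the hexokinase genes was read within each library, where library scaling cancels. The ratio of Hk1 to Hk2 reads per kilobase of exon was 1.54 and 1.47 in the controls and 1.80 in both treated libraries. All treated ratios were above both controls, and an exact two-sided permutation test over libraries gave p = 0.333, the smallest it can give with 2 libraries against 2 (0.333 adjusted over the 4 isoform pairs compared). On the log2 scale the response of Hk1 exceeded that of Hk2 by 0.26, with a 95% interval of 0.12 to 0.39 that treats the errors of the genes as independent. In shares, Hk2 made up 39.4% and 40.5% of hexokinase reads per kilobase in the controls and 35.8% in both treated libraries. With the length of the principal transcript in place of the exon union the Hk2 shares were 24.1% and 24.9% in controls and 21.4% in both treated libraries. Hk3 and Hkdc1, also of the hexokinase family, had at most 2 reads in any library.

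**Figure D2:**
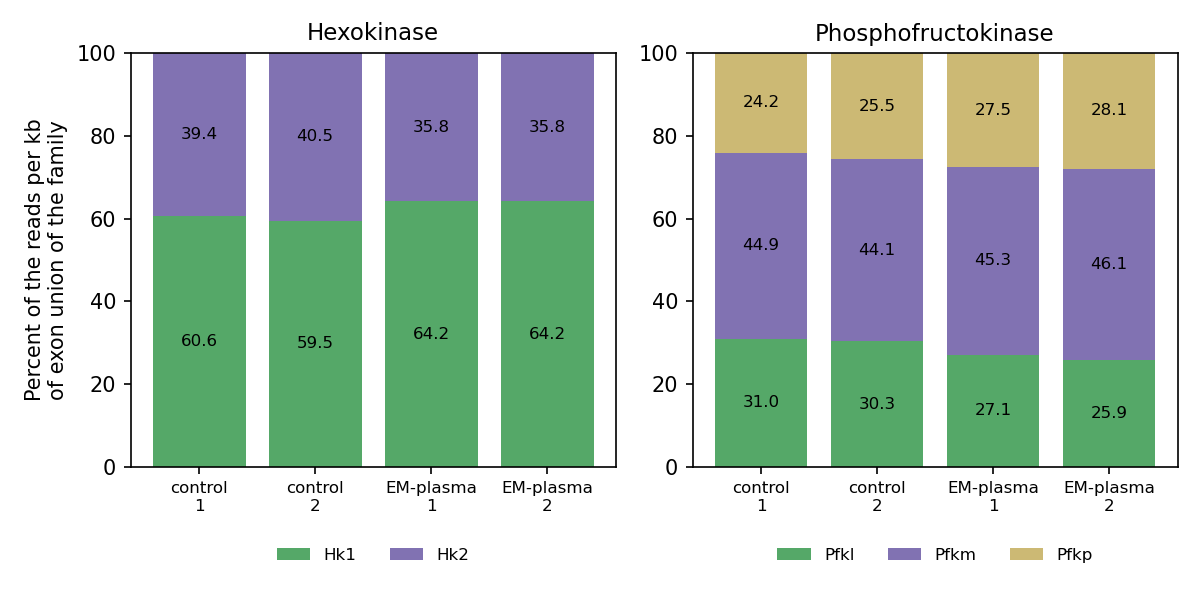
Stacked bars give the percent of hexokinase (left) and phosphofructokinase (right) reads per kilobase of exon union that fell to each gene, in each of the 4 libraries. Hk1 takes 60.6% and 59.5% in the controls and 64.2% in both treated libraries, and Pfkl takes 31.0% and 30.3% against 27.1% and 25.9%.

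The promoters of Hk1 and Hk2 are shown as those of the hexokinase pair just compared. They are the 250 bases before the transcript start in RefSeq (GRCm38.p6), on the gene's strand, with matches in capitals. The letters searched on both strands were ACGTG and GCGTG, the core of the hypoxia response element, and CACGTG, the E-box bound by MYC, which contains ACGTG. Hk1 has 2 RefSeq starts, and gene counts do not tell which was used; the downstream start is shown (chr10:62340422-62340671, minus strand), with Hk2 at chr6:82774455-82774704, minus strand.
Hk1: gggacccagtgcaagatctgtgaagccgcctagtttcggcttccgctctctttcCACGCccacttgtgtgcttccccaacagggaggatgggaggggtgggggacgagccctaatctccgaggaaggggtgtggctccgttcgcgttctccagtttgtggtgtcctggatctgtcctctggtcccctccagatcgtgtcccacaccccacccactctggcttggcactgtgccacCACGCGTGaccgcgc
Hk2: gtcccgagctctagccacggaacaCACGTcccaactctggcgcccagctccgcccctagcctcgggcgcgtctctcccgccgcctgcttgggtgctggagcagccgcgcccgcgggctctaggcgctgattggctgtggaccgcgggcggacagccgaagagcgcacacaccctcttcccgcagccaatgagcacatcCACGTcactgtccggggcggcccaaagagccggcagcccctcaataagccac
The Hk1 window holds 3 matches to GCGTG and 0 to ACGTG, and 2 of the 3 overlap. The Hk2 window holds 2 matches to ACGTG and 0 to GCGTG. The window at the upstream Hk1 start held 0 of either. Among the 32851 RefSeq windows of this length, ACGTG was in 16.6%, GCGTG in 28.2% and CACGTG in 6.02%.

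Phosphofructokinase was represented by Pfkl, Pfkm and Pfkp, named for the liver, muscle and platelet forms, whose subunits assemble into tetramers. Pfkl (chromosome 10, 77986947 to 78010083, minus strand, ENSMUSG00000020277) was at 112 and 104 CPM in the controls and at 84.5 and 82.8 CPM in the treated libraries. The groups lay well apart (log2 fold change -0.36, SE 0.0543, adjusted p = 5.39e-05 in edgeR's test), and the call held without each library in turn, with log2 fold changes from -0.41 to -0.31. In such fits 1 group is a lone library, assumed to vary like the other group. Of the alternatives run, the call ended only when every gene with at least 1 read was kept (log2 fold change -0.37, adjusted p = 0.118). That filter left 14 calls among 22906 genes and 0 in every gene list described here. The test then had 5.36 total degrees of freedom, against 27.5 in the reported fit. Over 14 alternatives the adjusted p ran from 4.03e-12, with a replicate block and 13700 degrees of freedom, to 0.118. Pfkm (chromosome 15, 98092589 to 98132451, plus strand, ENSMUSG00000033065) was at 80.9 and 75.4 CPM in the controls and at 70.7 and 73.8 CPM in the treated libraries. Its groups did not overlap, though control 2 and EM-plasma 2 were close, and it did not pass the test (log2 fold change -0.11, 95% interval -0.23 to 0.0031, adjusted p = 0.271). Pfkp (chromosome 13, 6579768 to 6648777, minus strand, ENSMUSG00000021196) was at 175 CPM in both controls and at 172 and 180.4 CPM in the treated libraries. The treated Pfkp values lay on either side of the controls (log2 fold change 0.012, 95% interval -0.085 to 0.11, adjusted p = 0.929). Summed over the 3 genes the level was 367 and 354 CPM in the controls and 327 and 337 CPM in the treated libraries.

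Within libraries the ratio of Pfkl to Pfkp reads per kilobase of exon union was 1.28 and 1.19 in the controls and 0.985 and 0.921 in the treated libraries. On the log2 scale the response of Pfkl lay below that of Pfkp by 0.37 (difference -0.37, 95% interval -0.52 to -0.23). The ratio of Pfkl to Pfkm was 0.69 and 0.687 in the controls and 0.598 and 0.562 in the treated libraries (difference of responses -0.25, 95% interval -0.41 to -0.087). For Pfkm against Pfkp the ratios were 1.86 and 1.73 in the controls and 1.65 and 1.64 in the treated libraries, and the interval of the difference included 0 (-0.13, 95% interval -0.28 to 0.026). For each of these 3 pairs the groups did not overlap, and the exact two-sided permutation test gave its smallest value, p = 0.333 (0.333 adjusted over the 4 isoform pairs). The Pfkl share was below both controls, and the Pfkp share above both, with exon-union lengths, principal transcripts and raw reads. A gene's length is the same in every library, so given these ratios the direction of both shares could not depend on the length chosen. The Pfkl share of raw reads was 30.4% and 29.3% in the controls and 25.8% and 24.6% in the treated libraries. The size of the Pfkm difference and the overlap of its groups depended on length, since its share of raw reads was 22.0% and 21.3% in controls and 21.6% and 21.9% in treated libraries.

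The Pfkl and Pfkp promoters are shown as the member that fell and its most abundant isoform by reads, at chr10:78009808-78010057 and chr13:6648772-6649021, both on the minus strand and marked as for hexokinase.
Pfkl: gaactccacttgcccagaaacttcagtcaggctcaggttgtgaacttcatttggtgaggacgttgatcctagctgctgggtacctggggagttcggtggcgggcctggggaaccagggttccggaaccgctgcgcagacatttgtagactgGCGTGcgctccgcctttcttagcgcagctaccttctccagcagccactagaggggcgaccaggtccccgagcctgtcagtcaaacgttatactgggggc
Pfkp: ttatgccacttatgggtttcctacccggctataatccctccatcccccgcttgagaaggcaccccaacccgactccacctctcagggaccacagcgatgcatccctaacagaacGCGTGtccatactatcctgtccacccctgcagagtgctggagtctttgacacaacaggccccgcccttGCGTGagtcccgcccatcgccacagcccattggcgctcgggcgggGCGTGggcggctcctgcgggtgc
Pfkl held 1 match to GCGTG and Pfkp 3, with 0 matches to ACGTG in either. Over the 10 genes, 14 of 19 RefSeq windows held ACGTG or GCGTG, beside 38.6% of all windows, and several windows of Pfkm, Aldoa and Eno1 overlap each other. The windows compared were not matched for base composition, and G plus C made up 36.4% to 71.2% of the 19. Pgk1 held 2 matches to ACGTG, and Gpi1 was the 1 gene of 10 with neither motif. CACGTG was in 1 of the 19 windows, at a Pfkm start, beside 6.02% of all windows. These are matches of letters and were not tested against the expression values.

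The remaining members, Gpi1, Aldoa, Pgk1, Eno1 and Pkm, were the most abundant per length of exon, and none of the 5 passed the test. Gpi1 (chromosome 7, 34201330 to 34230336, ENSMUSG00000036427) was at 659 and 607 CPM in the controls and at 654 and 651 CPM in the treated libraries. The treated values lay between the controls (log2 fold change 0.044, 95% interval -0.043 to 0.13, adjusted p = 0.622). Aldoa, the aldolase that splits fructose 1,6-bisphosphate (chromosome 7, 126795234 to 126800751, ENSMUSG00000030695), was at 1169 and 1093 CPM in the controls and at 1107 and 1111.5 CPM in the treated libraries. The treated values again lay between the controls (log2 fold change -0.028, 95% interval -0.11 to 0.053, adjusted p = 0.761). The second Aldoa row (126800790 to 126809108, ENSMUSG00000114515) had 28 and 17 reads in the controls and 30 and 18 in the treated libraries, too few to place the difference more narrowly than -0.77 to 1.06 on the log2 scale.

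Pgk1, the first ATP-yielding enzyme of the pathway (chromosome X, 106187100 to 106203699, ENSMUSG00000062070), was at 652 and 647 CPM in the controls and at 630.2 and 635 CPM in the treated libraries. Both treated values were below both controls, by an amount that did not pass the test (log2 fold change -0.038, 95% interval -0.12 to 0.044, adjusted p = 0.659). Eno1, the enolase of most tissues (chromosome 4, 150236721 to 150248879, ENSMUSG00000063524), was at 1714 and 1626 CPM in the controls and at 1728 and 1752 CPM in the treated libraries. Here both treated values were above both controls, with control 1 close to them (log2 fold change 0.059, 95% interval -0.018 to 0.14, adjusted p = 0.415). Pkm, pyruvate kinase (chromosome 9, 59656368 to 59679375, ENSMUSG00000032294), was at 1670.3 and 1578 CPM in the controls and at 1613 and 1633 CPM in the treated libraries. The treated values lay between the controls (log2 fold change -0.0012, 95% interval -0.079 to 0.077, adjusted p = 0.992). The splice forms of Pkm cannot be told apart in gene counts.

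**Figure D3:**
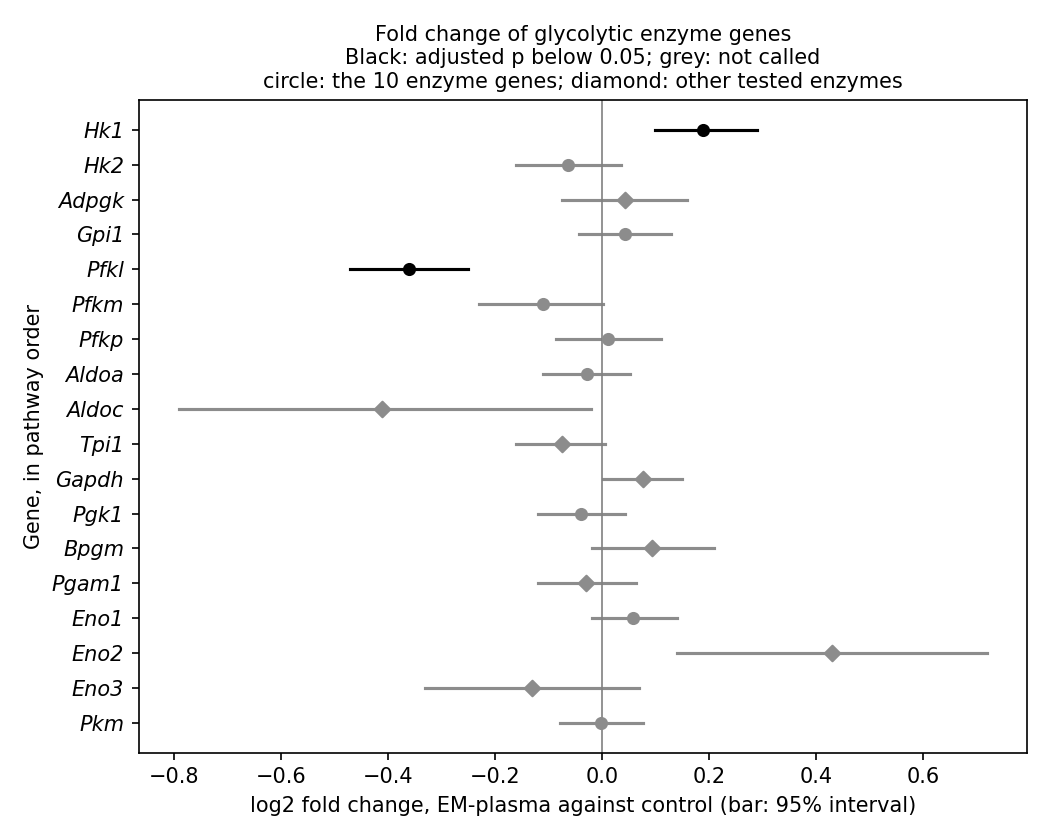
Log2 fold change of EM-plasma against control (points) with its 95% interval (bars) for the 10 genes (circles) and the 8 other tested glycolytic enzymes (diamonds), in pathway order. Hk1 at 0.19 and Pfkl at -0.36 were called (black), and the intervals of the other 8 genes of the 10 include 0. Of the diamonds, none called, Gapdh (0.0023 to 0.15), Eno2 (0.14 to 0.72) and Aldoc (-0.79 to -0.02) have intervals that exclude 0. The intervals of the remaining diamonds include it.

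Levels between genes were compared as CPM per kilobase of exon. With the union of annotated exons as length the control means ran from 389 for Aldoa through 325 for Pkm, 310.5 for Eno1, 289 for Pgk1, 98.1 for Gpi1, 42.2 for Hk1, 28 for Hk2, 23.4 for Pfkm and 16.1 for Pfkl to 13.0 for Pfkp. In the controls Pkm (334 and 316) and Eno1 (319 and 302) overlapped, and the other neighbours in this order did not. With the principal transcript as length Eno1 came first at 824, ahead of Aldoa at 749 and Pkm at 668, and Pfkp at 42.2 came before Hk2 at 30.4, Pfkl at 28.8 and Pfkm at 27.1. Control values of Hk2 (31.1 and 29.6) overlapped those of Pfkl (29.9 and 27.8), which overlapped those of Pfkm (28.1 and 26.2). The later steps stood above the hexokinase and phosphofructokinase steps under both lengths, and the order among the phosphofructokinase genes depended on the length.

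**Figure D4:**
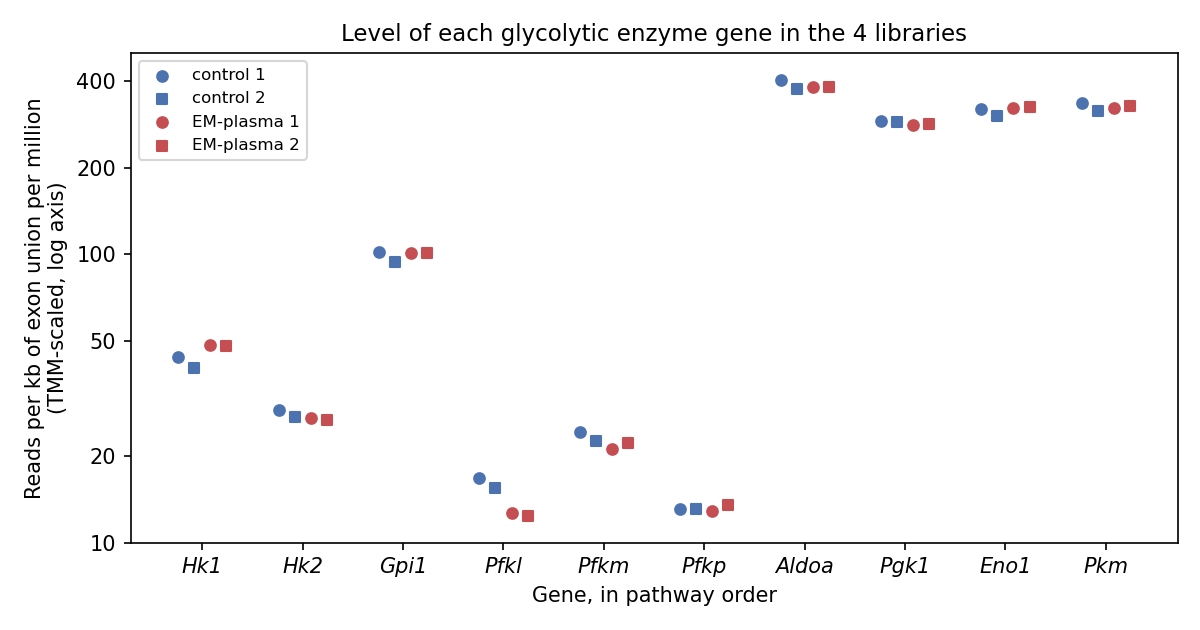
CPM per kilobase of exon union (log axis) of the 10 genes in each of the 4 libraries (points). Aldoa, Pgk1, Eno1 and Pkm lie between 281 and 402, Gpi1 between 94.1 and 102, and the hexokinase and phosphofructokinase genes between 12.4 and 48.5.

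Some reads of the members could be shared with copies or overlapping genes. Eno1b, a near-identical copy of Eno1, had 69 to 125 reads in a library, and Pgk1-rs7, a processed pseudogene of Pgk1, had 33 to 63. Adding the copies to their members left the log2 fold changes at 0.059 for Eno1, -0.038 for Pgk1 and -0.028 for Aldoa. Eno1 itself had 77095 to 84381 reads and Pgk1 29381 to 32084, so the copies could hardly move them. Hk1 and Pfkl gained no reads in that fit, which therefore could not test their calls. Hk1os, on the strand opposite Hk1, had 32 to 54 reads. Senp1 and Pitrm1, on the strands opposite Pfkm and Pfkp, reached 5294 and 14301 reads and did not pass the test (adjusted p = 0.467 and 0.458). The strand setting of the counting is not stated, so reads of opposite-strand partners may be shared. Gm49759, an unclassified gene inside Pkm on the same strand (59672814 to 59676700), rose 1.35-fold. It was at 21.2 and 17.9 CPM in the controls and 27.4 and 25.5 CPM in the treated libraries (log2 fold change 0.43, adjusted p = 0.00106), and its call ended without control 2 (adjusted p = 0.168) or with every gene of at least 1 read kept (0.256). It was named after its values were seen, and whether its reads belong to Pkm was not tested.

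The other enzymes of the pathway were listed by function, 17 genes of which 12 had a read and 8 were tested. Of these 8, 0 rose and 0 fell in edgeR's test and 0 were called by DESeq2, with 3 at an unadjusted p below 0.05 and a median log2 fold change of 0.0066. Gapdh, which makes 1,3-bisphosphoglycerate, was at 1653 and 1621 CPM in the controls and 1715 and 1737 CPM in the treated libraries (adjusted p = 0.236). Tpi1, triosephosphate isomerase, was at 848 and 821 CPM and at 785 and 800.0 CPM (adjusted p = 0.303). Pgam1, phosphoglycerate mutase, was at 228 and 219 CPM and at 217 and 221 CPM (adjusted p = 0.784). Both treated libraries were above the controls for Gapdh and below them for Tpi1, while the Pgam1 groups overlapped. Eno2, the neuronal enolase, had the lowest adjusted p of the 4 (0.0656), at 4.75 and 4.47 CPM in the controls and 5.73 and 6.72 CPM in the treated libraries. Of 5 enzymes that make or break fructose 2,6-bisphosphate, the activator of phosphofructokinase, 0 were called in edgeR's test or by DESeq2, with 1 at an unadjusted p below 0.05. The most abundant was Tigar (log2 fold change 0.12, adjusted p = 0.211). Of 7 tested gluconeogenic and glycogen enzymes 0 were called by either tool and 0 had an unadjusted p below 0.05, with Ugp2 the most abundant (log2 fold change -0.04, adjusted p = 0.722).

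Over all tested genes 2.88% fell and 3.34% rose, with a median log2 fold change of -0.0027. Around the pathway, 2 of 10 tested genes of glucose and lactate transport and lactate dehydrogenase fell and 0 rose, with a median of -0.059. They were the lactate exporter Slc16a3 (10.6 and 7.17 CPM in the controls, 2.12 and 2.15 CPM in the treated libraries, adjusted p = 2.53e-09, or 0.0807 with every gene of at least 1 read kept) and the glucose transporter gene Slc2a6. Slc2a6 was at 31.1 and 25.9 CPM in the controls and 23.9 and 22.1 CPM in the treated libraries (adjusted p = 0.02), and its call ended without each library in turn (adjusted p from 0.0594 to 0.33) and with DESeq2 (0.0743). Among 13 tested genes of pyruvate entry into mitochondria 1 fell, Pdk1, the kinase that holds back pyruvate dehydrogenase. It was at 20.9 and 20.3 CPM in the controls and at 12.8 and 10.9 CPM in the treated libraries (log2 fold change -0.80, adjusted p = 8.13e-07), and its call ended without control 2 (adjusted p = 0.0733) or with every gene of at least 1 read kept (0.0888).

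Of 19 tested hypoxia-induced genes outside glycolysis 5 fell and 2 rose, where 2.88% of all tested genes fell and 3.34% rose. Of the 19 log2 fold changes 16 were below 0, with a median of -0.16 beside -0.0027 over all tested genes. Bnip3 and Bnip3l, mitophagy receptor genes, had log2 fold changes of -0.55 and -0.34 (adjusted p = 3.93e-05 and 0.000256). Ak4, a mitochondrial adenylate kinase, had -0.50 (adjusted p = 0.000474) and Ddit4, an inhibitor of mTORC1, -0.31 (adjusted p = 0.0133), while Ero1l, an oxidase of the endoplasmic reticulum, rose (0.30, adjusted p = 7.01e-05). With every gene of at least 1 read kept, 0 genes of this list were called, Ero1l included (adjusted p = 0.0895). Without control 2 this list held 0 genes called lower and 1 called higher, Ero1l. The calls of Bnip3, Bnip3l, Ak4 and Ddit4 ended there (adjusted p = 0.0537, 0.0859, 0.0639 and 0.109), that of Bnip3l also without EM-plasma 1 (0.058), and that of Ddit4 also without control 1 (0.20) or EM-plasma 1 (0.392). The glycolytic members had 6 of 11 log2 fold changes below 0, and whether the lists differ was not tested. Of 13 tested regulators of glycolytic genes, Txnip, which restrains glucose uptake, fell (log2 fold change -0.42, adjusted p = 6.41e-05) and Myc rose (0.17, adjusted p = 0.0355). The call of Txnip ended without control 2 (adjusted p = 0.0597) or with every gene of at least 1 read kept (0.111), and that of Myc without each library in turn (adjusted p from 0.0524 to 0.641). Hif1a, the oxygen-regulated subunit of hypoxia-inducible factor, was at 219 and 238 CPM in the controls and 209 and 212 CPM in the treated libraries. It did not pass the test (log2 fold change -0.12, adjusted p = 0.147) but was called lower without control 1 (-0.18, adjusted p = 0.0451). Ptbp1, Hnrnpa1 and Hnrnpa2b1, splicing factors that act on Pkm, had log2 fold changes of -0.0082, 0.014 and 0.014 and did not pass the test.

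**Figure D5:**
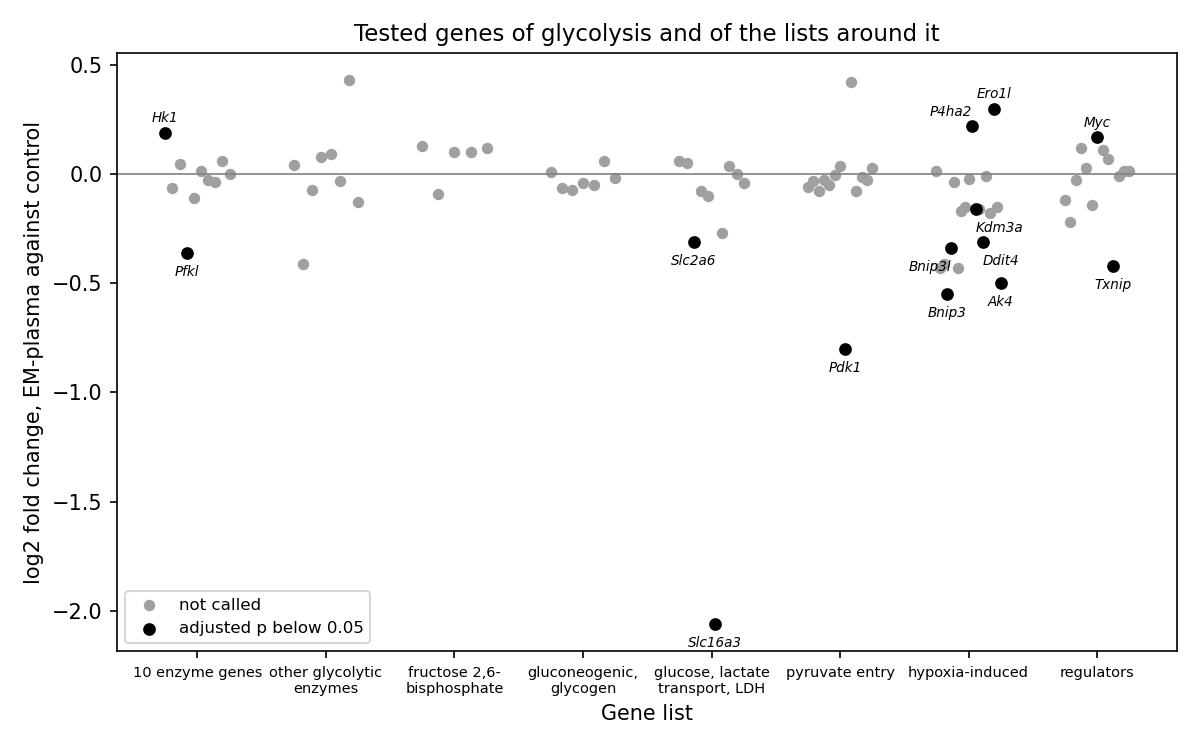
Log2 fold change of EM-plasma against control for each tested gene (points) of the 10 enzyme genes and 7 lists around them, with called genes in black and named. Slc16a3 at -2.06 is the lowest point, and the called enzyme genes are Hk1 at 0.19 and Pfkl at -0.36.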

How the data were processed

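The authors deposited a table of counts, whole-number reads per Ensembl gene and library with replicates not pooled. They also deposited 1 table of a scaled signal per sample, in which each value equalled the gene's count times 1 constant per library; it served only as a check. A stranded kit was used on poly(A) RNA, per the labels' protocols. TopHat2 2.1.1, HTSeq, edgeR and GRCm38 are named, per the submitters' processing notes. The sources used here give no annotation release, strand setting or handling of reads that map to several places.

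Symbols, positions and exon lengths came from GENCODE M21 on GRCm38, which matched 53360 of 53465 rows. filterByExpr in edgeR 4.0.16 (R 4.3.3) left 13664 genes. Libraries were scaled by TMM and tested with the quasi-likelihood F test on group, two-sided, without a replicate block. SE is the absolute log2 fold change over the square root of F, and 95% intervals use 27.5 total degrees of freedom. Of these, 25.5 are prior degrees of freedom, borrowed from the spread of other genes. The code was tested on simulated data.

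The members and lists were chosen with earlier results of these data known. Named genes were the members, in other lists the called genes, at most 5 with the lowest adjusted p, or else the most abundant tested gene, Gapdh, Tpi1, Pgam1 and Eno2, and copies with at least 10 reads in a library. Other genes were named after their values were seen. Same-numbered libraries are not said to share a culture. Protein sequences were not analysed here. Intervals reflect only the spread among the 4 libraries, counting error included. Alternatives were other scalings, tests, filters and dispersions, a replicate block, added copies, and fits without 1 library. In edgeR the total degrees of freedom, 27.5 in the reported fit, were 5.36 with every gene of at least 1 read kept and 13700 with the block. They ran from 5.27 to 14100 in fits without 1 library. Calls and p-values of these fits are thus not like for like.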

Additional observations from a re-analysis of the deposited data

How the results depend on the processing

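Of the 11 rows, Hk1 and Pfkl kept their directions in all 14 alternatives. Among these, the fit with added copies left the counts of Hk1 and Pfkl unchanged. The 9 rows that did not pass the test did not pass it in any alternative that gave a value. The members called numbered 0 when all genes with at least 1 read were kept and 1 to 2 in fits without 1 library, against 2. Those fits leave 1 group with a lone library, assumed to vary like the other group. In them Pfkl was called each time and Hk1 without control 1 alone. The log2 fold changes of Gpi1, Pfkp, Aldoa, the second Aldoa row and Pkm changed sign in fits without 1 library, while none of them was called. The calls over all genes, 849 in the reported fit, numbered 545 with DESeq2, 14 when all genes with at least 1 read were kept, and 71 to 547 without 1 library. The median log2 fold change of all genes stayed between -0.0055 and 0.021 under all settings. Of the calls 53.7% were higher, but 45.1% with DESeq2 and 92.9% of the 14.

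With the replicate number as a block 1683 genes were called, and the same members were called (2). Of the other glycolytic enzymes 1, Eno2, was called higher (adjusted p = 0.0259), against 0 in the reported fit. The fit with the block had 13700 total degrees of freedom and the reported fit 27.5, so their calls are not like for like. The block also raised the hypoxia-induced genes called lower from 5 to 9, and Hif1a (adjusted p = 0.0374) and Tyr (0.00636) were called lower and Col1a1 (0.0277) higher. Same-numbered libraries deviated together only weakly (correlation 0.039 across genes). Counting error in genes with few reads weakens this value, so it cannot decide whether the numbers mark a pairing. The labels do not say that the numbers mark a shared culture.

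The change in the Hk2 share was -4.19 percentage points with exon-union lengths, -3.15 with principal transcript lengths (an alternative chosen after seeing the data), and -4.71 to -3.67 without 1 library. The Pfkm share changed by 1.19 points with exon-union lengths, 0.07 with raw counts and 0.21 with principal transcripts, and the Pfkp share by 2.96, 4.56 and 4.24 points. Depth limited the second Aldoa row, with 17 to 30 reads in a library.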
